A study of Arabidopsis thaliana with 12 samples.

Results

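The nuclear transcriptome of wild-type *Arabidopsis thaliana* leaves was described from the 3 RNA-seq libraries labelled as mature leaves of Col-0 at 5 weeks. These are 3 of the 12 libraries of the series with processed files here. Col-0 is the reference accession, and the labels name its plants wild type, with no treatment. The study's methods state that the whole aerial part was taken at 5 weeks, with the inflorescence removed, so that petioles and shoot apices can be present beside blades. Each file lists 23151 genes, of which 22901 have nuclear identifiers. The 250 plastid and mitochondrial genes were set aside. Of the nuclear genes, 1046 are transposable element genes (TE genes), which carry a suffix after the locus number, and 21855 are other genes. The labels do not say whether the replicates were separate plants or pools, so spread between them may be technical in part.

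Leaves of this age are dominated by mesophyll, whose chloroplasts fix carbon. Light-harvesting complexes and the 2 photosystems capture light, Rubisco fixes CO2 in the Calvin-Benson cycle, and photorespiration recovers carbon after Rubisco reacts with oxygen. The small subunit of Rubisco, Rubisco activase and most antenna proteins are encoded in the nucleus. Transposons are kept nearly silent in the wild type by DNA methylation and repressive histone marks. Leaf cells also respond within minutes to wounding, touch and cold through the hormone jasmonate and families of stress-induced transcription factors.

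The deposited log2 values were converted back to whole reads. The libraries of replicates 1, 2 and 3 held 10864795, 12944833 and 13336989 reads, of which 4308136, 4958344 and 5034164 lay on nuclear genes. Plastid genes took 57.8% to 59.6% of reads and mitochondrial genes 2.51% to 2.72%. A count of 0 allows a level of up to 3 reads, which is 0.596 to 0.696 per 1000000 nuclear reads, for counting error only. Below, normalised reads are reads divided by the size factor of the library as deposited, and TPM is a level per length, reads per kb of exon, scaled to 1000000 over nuclear genes without the 4 rRNA genes.

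At least 1 read in each library was found for 19232 nuclear genes (84.0% of those listed), and at least 10 reads in each library for 15892 (69.4%). Only 562 genes reached 1000 reads in every library. Levels ranged widely. The median over the 22033 genes above 0 was 15.3 TPM, the 90th percentile was 95.5 TPM, and 58 genes exceeded 1000 TPM. With the 4 rRNA genes included, 50 genes held 25% of nuclear transcripts. Without them 39 genes held 10%, 256 genes held 25% and 1377 genes held 50%.

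Marker genes of mesophyll, phloem and epidermis were present. RCA, the Rubisco activase, reached 6416 ± 99.4 TPM (SD, n = 3, as for all values below given with ±). LHCB2.1, an antenna protein of photosystem II, reached 1246 ± 90.4 TPM and RBCS1A, a Rubisco small subunit, 1191 ± 154 TPM. All 6 mesophyll markers had at least 10 reads in each library. CA1, a carbonic anhydrase, was the lowest of the 6 with 41.1 ± 23.8 TPM. Phloem markers were found as well, with SUC2, the sucrose loader of companion cells, at 140 ± 21.2 TPM and SWEET11, a sucrose exporter, at 412 ± 40.9 TPM. Among epidermal genes ATML1, a homeodomain factor of the outer layer, stood at 35.2 ± 4.0 TPM. Of the 5 guard cell markers 4 had at least 10 reads in each library. Trichome markers were low, with 1 of 5 at that count and a highest level of 3.97 TPM.

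Markers of flower and pollen were low. Of the 8 floral genes listed, 1 had at least 10 reads in each library (SEP1, with 15, 26 and 31 reads in replicates 1, 2 and 3), and AP3, which specifies petals and stamens, had 2, 6 and 1 reads. SEP3, another floral organ gene, had 0, 7 and 14 reads. Of the 4 shoot meristem markers 2 are listed, and WUS and CLV3 have no row. STM and KNAT1 were detected in every library, STM with 22, 59 and 77 reads and KNAT1 with 47, 73 and 78 reads. Both were lowest in replicate 1. The 3 pollen markers had at most 5 reads in any library. None of the 6 seed markers is listed, so their level is not known. Of the 6 root markers 3 are listed, and 2 of these had at least 10 reads in each library. PHO1, a phosphate exporter, had 158, 351 and 372 reads and 40.5 ± 14.2 TPM, and SCR, a factor of the endodermis and bundle sheath, 33, 60 and 71 reads. Among cell division genes CYCB1;1, a mitotic cyclin, had 1, 3 and 1 reads, and 8 of 22 cell cycle genes had at least 10 reads in each library, against 69.4% of all nuclear genes. CDC2, the kinase CDKA;1 that is present in cells able to divide and in others, was the highest of them at 84.2 ± 9.47 TPM.

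**Figure D1:**
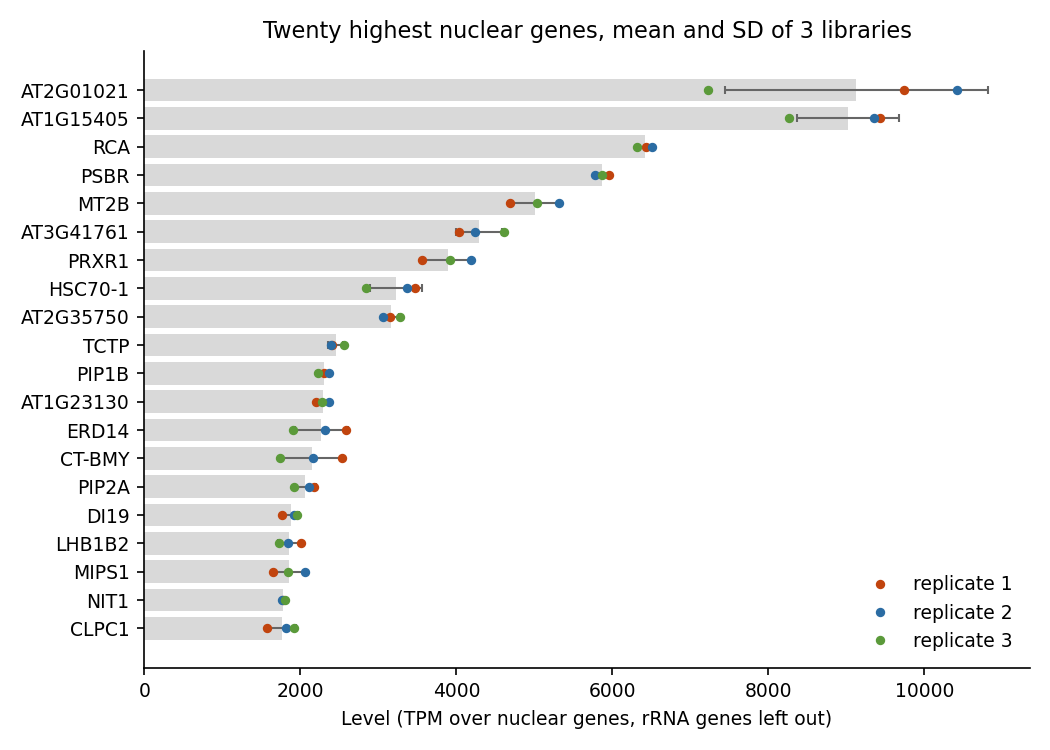
TPM of the 20 highest nuclear genes other than those annotated as rRNA. AT2G01021 and AT3G41761 lie beside rRNA genes and were kept. Bars give the mean of the 3 libraries, error bars the SD, and points the single libraries. RCA at 6416 TPM and PSBR at 5868 TPM stand above all other genes with a known protein.

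Among the 20 highest genes, RCA and PSBR led the proteins of known function. RCA had 29575, 33252 and 33448 reads in replicates 1, 2 and 3. PSBR, a subunit of photosystem II near the oxygen-evolving complex, had 10230, 11012 and 11611 reads and 5868 ± 89.8 TPM. MT2B, a metallothionein that binds metals, followed with 5010 ± 319 TPM, and PRXR1, a peroxidase, with 3889 ± 318 TPM. HSC70-1, the constitutive cytosolic HSP70 chaperone, had 3226 ± 336 TPM. The aquaporins PIP1B and PIP2A, which carry water over the plasma membrane, had 2301 ± 70.5 and 2063 ± 134 TPM. CT-BMY, the chloroplast beta-amylase of starch breakdown, reached 2143 ± 397 TPM, and MIPS1, which makes myo-inositol phosphate, 1853 ± 206 TPM. The antenna gene LHB1B2 stood at 1859 ± 145 TPM. Over the 3 libraries none of the 20 genes changed its TPM by more than 0.54 on the log2 scale between the highest and the lowest library. Neighbours such as PIP1B, AT1G23130 (2286 ± 84.8 TPM) and ERD14 (2269 ± 338 TPM), a dehydrin, did not differ beyond their spread.

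The 4 other genes in this group with no protein of known function need a reservation. AT2G01021 (9128 ± 1682 TPM) is 102 bases long, lies beside rRNA genes at the end of chromosome 2 and has a 100% identical copy on chromosome 3. AT3G41761 (4296 ± 295 TPM), of 162 bases, lies beside rRNA genes on chromosome 3 and has a 98.8% identical copy on chromosome 2. Levels per length of such short genes are unreliable, and reads of such copies cannot be told apart. AT1G15405, a non-coding RNA of 292 bases on chromosome 1, had 6035, 6645 and 6085 reads and 9019 ± 657 TPM. AT2G35750, an uncharacterized protein, had 3160 ± 104 TPM.

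The upstream sequence of RCA, the most abundant mRNA of known function, is given because light-regulated genes often carry an I-box there. The 250 bases before the annotated start (TAIR10.1 from RefSeq, chr2:16573693-16573942, minus strand) hold 1 copy of GATAAG, searched on both strands, in capitals. It begins 133 bases before the start. The motif was found in 12.3% of the windows of all 27443 protein-coding genes.
RCA: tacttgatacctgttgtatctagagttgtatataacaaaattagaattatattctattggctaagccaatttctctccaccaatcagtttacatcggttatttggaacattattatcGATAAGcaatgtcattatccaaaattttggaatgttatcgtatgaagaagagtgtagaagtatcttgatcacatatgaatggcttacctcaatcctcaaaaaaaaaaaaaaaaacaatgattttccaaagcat

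By function, the classes named for photosynthesis took 4.53% of the nuclear reads counted. Reads with a mapping quality under 30 had been removed, so the part lost from paralogs alike in sequence is not known. The 151 genes of the light reactions, Rubisco and its activase, the Calvin-Benson cycle with photorespiration and chlorophyll synthesis held 4.82%, 4.40% and 4.38% of nuclear reads in replicates 1, 2 and 3, a mean of 4.53 ± 0.25%. The 60 genes classed by name as light-harvesting and photosystem genes alone held 1.71 ± 0.20%, Calvin-Benson and photorespiration genes 1.66 ± 0.033%, and the 5 Rubisco and activase genes 0.820 ± 0.034%. RCA accounted for 0.674 ± 0.011%. The names and symbols drew in 9 genes of other function, among them PSAT1, a sterol acyl transferase, and without them the 4 classes together held 4.49 ± 0.25%. Per gene these classes were high. The median gene of the photosystem class stood at 250 TPM, against 15.3 TPM for all genes above 0, and 59 of 60 had at least 10 reads in each library.

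Within the antenna family the paralogs were unequal. LHCA4 (1703 ± 135 TPM), LHCA1 (1012 ± 56.0 TPM) and LHCA3 (916 ± 105 TPM) of photosystem I exceeded LHCA2 (743 ± 80.7 TPM), whereas Lhca5 (119 ± 4.12 TPM) and Lhca6 (13.3 ± 2.08 TPM) were low. In photosystem II, LHB1B2 (1859 ± 145 TPM) was far above LHB1B1 (20.5 ± 12.1 TPM), and CAB1 (1465 ± 370 TPM) was above CAB2 (600 ± 129 TPM) and CAB3 (370 ± 71.8 TPM). Of the Rubisco small subunits, RBCS1A led, RBCS3B had 692 ± 65.3 TPM, RBCS2B 404 ± 113 TPM and RBCS1B 32.9 ± 18.1 TPM. These paralogs are alike in sequence, and reads with a mapping quality under 30 had been removed, so the split between them is uncertain.

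LHCA4 is shown as the highest of the photosystem genes whose window holds a G-box, CACGTG, the site that bZIP and bHLH factors bind in many light-regulated promoters (chr3:17495034-17495283, minus strand). The G-box starts 88 bases before the gene. It occurred in 13 of 59 windows of photosystem genes (22.0%), against 6.49% of all protein-coding windows and 8.44% for genes with a mean of at least 100 reads. Some other lists had higher shares, such as 7 of 23 flavonoid windows (30.4%) and 6 of 20 clock windows (30%). Others had lower shares, such as 0 of 22 cell cycle windows.
LHCA4: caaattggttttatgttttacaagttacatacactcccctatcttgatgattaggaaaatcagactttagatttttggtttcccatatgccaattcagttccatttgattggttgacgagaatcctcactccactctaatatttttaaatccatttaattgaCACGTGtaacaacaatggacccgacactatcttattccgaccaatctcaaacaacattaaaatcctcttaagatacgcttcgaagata

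In photorespiration GGT1, the peroxisomal glutamate:glyoxylate aminotransferase, had 8094, 8963 and 9396 reads and 1679 ± 9.20 TPM, one of the steadiest values. SHM1, the mitochondrial serine hydroxymethyltransferase, had 1017 ± 55.7 TPM, and GLDP1, the P-protein of glycine decarboxylase, 705 ± 155 TPM. CAT2, the leaf catalase that removes the peroxide made in this pathway, had 1541 ± 137 TPM. The Calvin-Benson aldolases FBA2 and FBA1 had 1592 ± 15.2 and 1252 ± 41.7 TPM. In chlorophyll synthesis CRD1, a cyclase subunit, and GUN5, a subunit of magnesium chelatase, led with 593 ± 55.4 and 542 ± 20.3 TPM.

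**Figure D2:**
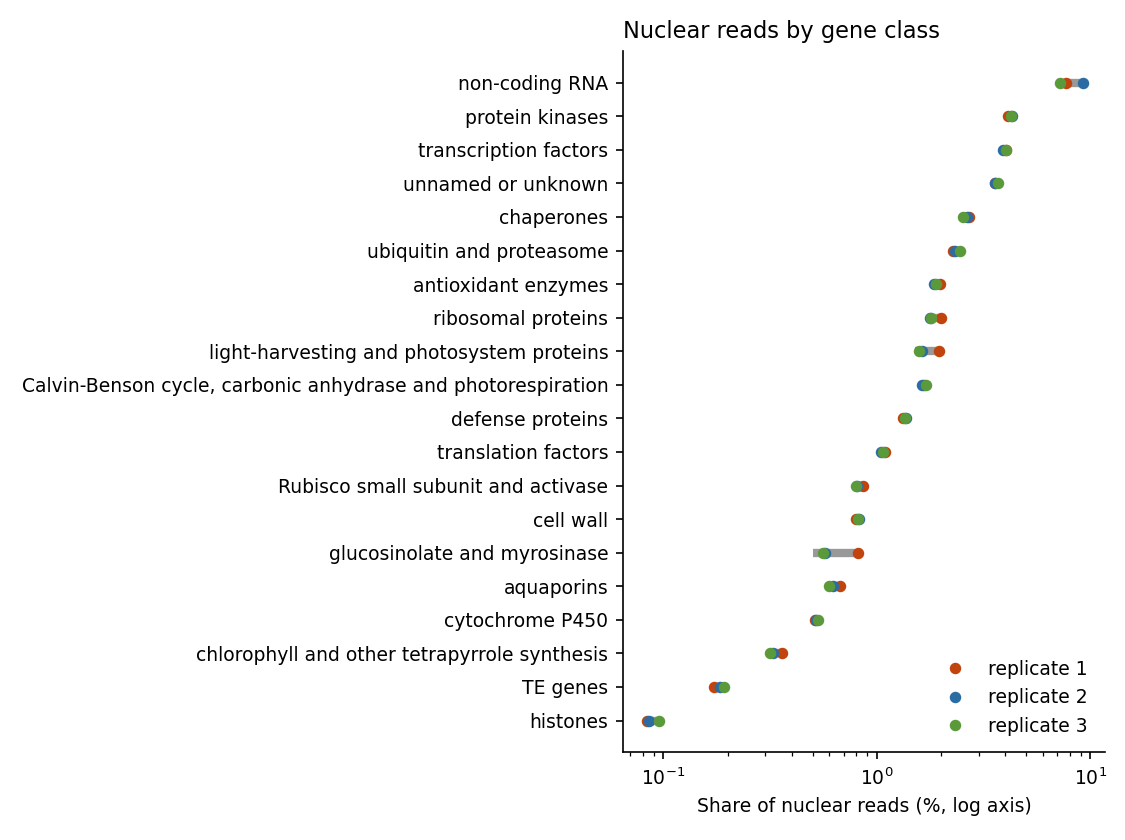
Share of nuclear reads held by each gene class in the 3 libraries (log axis). Points are libraries, and grey bars span the mean ± 1 SD. The class of all other named genes, which held 61.6%, is left out. Glucosinolate and myrosinase genes were spread most in proportion to their mean, from 0.557% to 0.813%.

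Outside photosynthesis, 1274 genes that RefSeq names as transcription factors held 3.98 ± 0.066% of nuclear reads and 885 protein kinase genes 4.21 ± 0.088%. LHY and some other factors carry names of another kind and are not among the 1274. HB6, a homeodomain protein of abscisic acid signalling (877 ± 40.3 TPM), and COL4, a CONSTANS-like protein (752 ± 36.1 TPM), were among the highest factors. SOBIR1, a receptor kinase that partners immune receptor proteins, led the kinases with 1082 ± 97.3 TPM, and WAK1, a cell wall-associated kinase, had 539 ± 55.4 TPM. Chaperones held 2.63 ± 0.094%, the ubiquitin and proteasome class 2.35 ± 0.090%, antioxidant enzymes 1.90 ± 0.069% and ribosomal proteins 1.86 ± 0.13%. UBQ10, a polyubiquitin gene in common use as a reference, kept within 0.02 on the log2 scale after division by the deposited size factors (3759, 4544 and 4900 reads) but was called against the nuclear totals, whereas UBQ11 had 5455, 3586 and 3327 reads. Histones held 0.088 ± 0.0064%, the lowest share of all classes. The most abundant of them, AT4G40040 (319 ± 16.9 TPM), is a histone superfamily protein.

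Glucosinolate and myrosinase genes, which make and activate the defense compounds of the cabbage family, held 0.813%, 0.572% and 0.557% of nuclear reads. This class differed most between libraries in proportion to its mean (0.647 ± 0.14%), with replicate 1 above the others. CYP83A1 and MAM1 of the methionine-derived branch led with 690 ± 47.5 and 682 ± 111 TPM.

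Clock genes stood in a strongly unequal order. LHY and CCA1, the MYB factors that peak around dawn, had 569 ± 53.3 and 471 ± 41.1 TPM. TOC1 (18.5 ± 3.04 TPM), ELF4 (6.82 ± 4.02 TPM), PRR5 (2.43 ± 0.30 TPM) and FKF1 (0, 0 and 1 reads), which peak later in the day, were far lower. The hour of harvest is not given in the sources used here. The median log2 range of the 14 clock genes with a mean of at least 100 reads was 0.19, and none exceeded 1. LHY, CCA1 and TOC1 are among these 14, whereas ELF4, PRR5 and FKF1 are not. By a chi-square test of reads against library totals (adjusted p under 0.01) 8 of 19 clock genes tested differed between libraries, against 16.8% of all genes tested. Genes with more reads are called more often, and of the 8233 genes with a mean of at least 100 reads 2565 were called. The clock count was 3 with libraries scaled by median-of-ratios size factors (all genes 2615 of 17641). It was 1 without replicate 1 (all genes 566 of 17899).

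Evening elements, AAAATATCT on either strand, are the sites through which CCA1 and LHY act on later-peaking genes. They lay in 5 of 20 clock gene windows (25%) and in 2.36% of all windows. GRP7, a clock-driven RNA-binding protein (165 ± 16.5 TPM; chr2:9266558-9266807, minus strand), had 3, starting 76, 55 and 31 bases before the start. TOC1 (chr5:24674713-24674962, plus strand) had 1, at 151 bases. The elements are in capitals.
GRP7: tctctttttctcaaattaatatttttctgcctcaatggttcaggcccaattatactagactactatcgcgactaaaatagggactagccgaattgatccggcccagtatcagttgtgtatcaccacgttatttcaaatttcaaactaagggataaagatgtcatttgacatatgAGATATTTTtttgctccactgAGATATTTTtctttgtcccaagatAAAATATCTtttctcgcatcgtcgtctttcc
TOC1: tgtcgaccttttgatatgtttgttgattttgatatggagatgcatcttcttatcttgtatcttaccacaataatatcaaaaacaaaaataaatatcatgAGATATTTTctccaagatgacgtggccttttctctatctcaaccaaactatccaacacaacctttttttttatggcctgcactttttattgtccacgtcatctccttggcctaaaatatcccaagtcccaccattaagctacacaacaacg

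The enzymes that methylate DNA were weakly expressed. MET1, which maintains CG methylation, had 40, 62 and 70 reads and 4.71 ± 0.98 TPM. CMT3 and CMT2, the chromomethylases of non-CG sites, had 6.94 ± 0.27 and 13.1 ± 2.09 TPM, and DRM2, the methyltransferase guided by small RNAs, 12 ± 2.8 TPM. DRM1 had 0, 1 and 0 reads. The remodeller DDM1 (CHR1 in RefSeq) had 3, 8 and 11 reads. The demethylases DME and ROS1 (DML1 in RefSeq) were higher, with 30.4 ± 1.02 and 37.9 ± 6.82 TPM, as was the histone demethylase gene IBM1 with 31.2 ± 0.53 TPM. The median over the 23 genes of this machinery was 8.28 TPM. Of 22 tested, 3 (DML1, DML2 and DML3) differed between libraries beyond counting error by the chi-square test, against 16.8% of all genes tested, so that the share is near the background. DML1 had 335, 407 and 431 normalised reads, DML2 128, 185 and 158, and DML3 32.5, 46.1 and 66.9. With any 1 library left out 0 to 2 were called.

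TE genes held 0.172%, 0.184% and 0.193% of nuclear reads in replicates 1, 2 and 3 (0.183 ± 0.011%). At least 10 reads in each library were found for 80 of the 1046 TE genes listed (7.65%), against 72.3% of the other nuclear genes. These 80 held 90.4 ± 0.75% of all TE gene reads, and the 10 highest alone held 43.4 ± 0.62%. Only 18 had at least 100 reads in each library and none 1000. By TPM, 27 TE genes exceeded the median of the expressed nuclear genes.

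**Figure D3:**
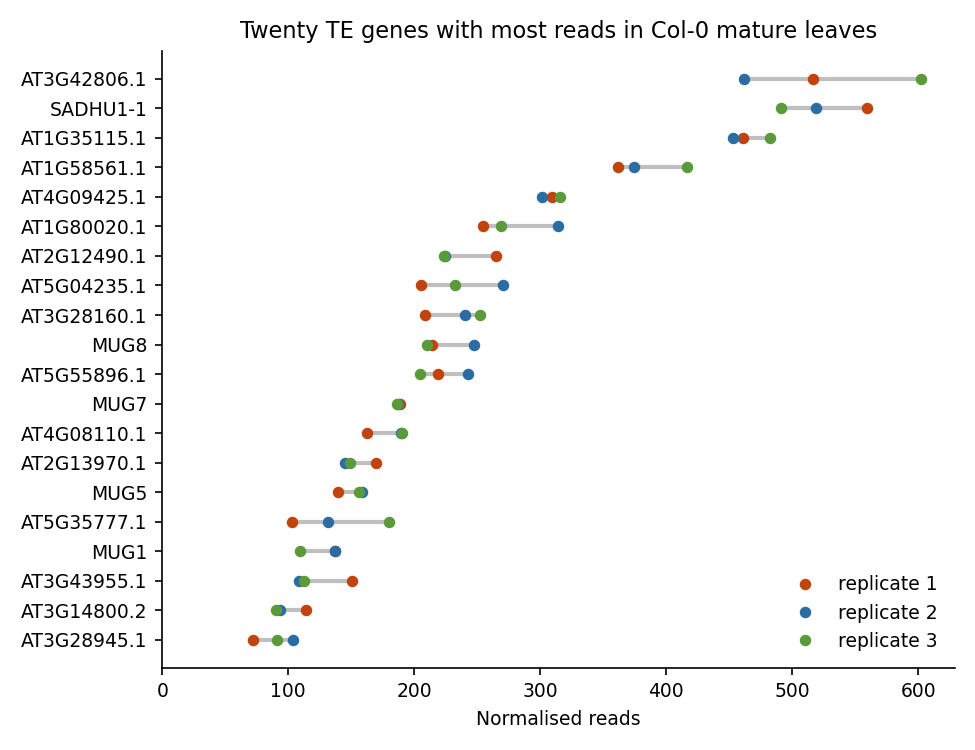
Normalised reads of the 20 TE genes with most reads. Points are the 3 libraries, joined by a grey line. AT3G42806.1 led with 462 to 603 normalised reads, and every gene shown was read in all 3 libraries.

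AT3G42806.1 (chr3:14914008-14918667) had the most, with 493, 531 and 739 reads. SADHU1-1 (AT2G10410.1, chr2:4005995-4007044), of the Sadhu family of non-autonomous retroelements, had 534, 597 and 602 reads and the highest level per length, 231 ± 3.40 TPM. AT1G35115.1 (chr1:12842158-12845455) had 440, 521 and 592 reads and AT1G58561.1 (chr1:21748675-21753246) 345, 431 and 511. AT4G09425.1 had 295, 347 and 387 reads, AT1G80020.1 243, 361 and 330, AT2G12490.1 253, 258 and 274, and AT5G04235.1 196, 311 and 285. Apart from SADHU1-1 these genes carry no element family in RefSeq, as is the case for 1028 of the 1046 TE genes.

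A family symbol was given to 18 TE genes, while 68 of the 1028 others were expressed. All 7 MUSTANG genes, which derive from a transposase of Mutator-like elements and now serve the host, had at least 10 reads in each library. MUG8 (AT5G34853.1) had 204, 285 and 258 reads, MUG7 (AT3G05850.1) 180, 215 and 228, MUG5 (AT3G06940.1) 133, 182 and 191, and MUG1 (AT3G04605.1) 131, 158 and 134. The family held 10.2 ± 0.57% of TE gene reads. Of 10 Sadhu elements 4 were expressed by this rule and together they and the other 6 held 8.55 ± 0.80%. SADHU3-2 had 0 reads in all 3 libraries and SADHU3-1 had 0, 0 and 1, beside the 534 to 602 reads of SADHU1-1. CYTOSLEEPER (AT1G15300.1) had 35, 38 and 49 reads.

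The position of the TE genes was described by their distance to centromeres. Assembly gaps of at least 1000 bases inside the chromosomes were taken as marks of the centromeric repeats. Of the 80 expressed TE genes 44 (55.0%) lay within 3 Mb of such a gap, against 292 of 364 TE genes with 0 reads (80.2%) and 10.8% of the other nuclear genes. Another annotated locus was overlapped by 18 of the 80 (22.5%) and by 64 of all 1046 TE genes (6.12%). No test was made of these differences. SADHU1-1 overlaps AT2G10405, and AT1G58561.1 overlaps AT1G58602, an NB-ARC disease resistance gene with 2883 normalised reads on average. The strand setting of the counting is not stated, so reads from overlapping genes cannot be told apart.

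Between the 3 libraries the range was compared for 18 of the 80 expressed TE genes, and it was near that of all nuclear genes. The 18 with a mean of at least 100 normalised reads had a median log2 range of 0.24 between the highest and lowest library. The median was 0.26 over all 8233 such nuclear genes. None of the 18 exceeded 1, against 3.74% of the 8233, so that few or none would be found at that share. The largest was AT5G35777.1, with 103, 131 and 180 normalised reads.

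A further group of listed nuclear genes cannot be told from organelle genes. Of the genes with a mean of at least 100 reads, 24 on chromosome 2 between 3244585 and 3497440 were at least 99.6% identical to the mitochondrial genome over 80% or more of their length. This is the site of a mitochondrial DNA insertion. They held 0.416 ± 0.029% of nuclear reads. AT2G07698, the counterpart of the mitochondrial ATP synthase alpha subunit gene, had 5075, 6095 and 6404 reads, and AT2G07709 1881, 2410 and 2774. Of the 80 expressed TE genes 3 lie there too, AT2G07682.1, AT2G07693.1 and AT2G07767.1, which leaves 77. The genome from which these reads came was not tested.

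No read was found in any of the 3 libraries for 829 listed nuclear genes (3.62%), which allows up to 0.21 per 1000000 nuclear reads over all 3. They were 364 TE genes (34.8% of those listed) and 465 others (2.13%), of which 412 are protein-coding. Rows with 0 throughout show that the listed genes were chosen over more libraries than these 3. A further 6377 of the 27444 protein-coding loci of RefSeq have no row and were not analysed here, so that 829 is not a count of all silent genes. Of the silent genes other than TE genes 21.9% lay within 3 Mb of a centromeric gap, and of all nuclear genes other than TE genes 10.8%. Their median exonic lengths were 1203 and 1734 bases. Neither difference was tested.

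Classes differed in their share of silent genes, which was not tested. No gene of the photosystem, Calvin-Benson, Rubisco, chlorophyll or histone classes was silent, and 1 of 351 ribosomal protein genes was. DC1 domain proteins were silent in 9 of 73 cases (12.3%), aquaporins in 3 of 24, and F-box proteins in 10 of 232 (4.31%). The following silent genes were picked after the list was seen. They are examples from the 125 silent genes with a symbol and stand for no theme. ACOS5 and LAP5 act in sporopollenin synthesis and GRP19 and GRP20 are pollen coat proteins. Pollen and pectin enzymes as a set, however, were silent in 3 of 152 cases (1.97%), against 2.13% of all nuclear genes other than TE genes. GATA23 and LBD18 act in lateral root formation, but none of the 3 root markers listed was silent. The 3 iron-deficiency factors bHLH38, bHLH39 and BHLH100 all had 0 reads, whereas the iron store FER1 had 2930, 4147 and 5231 reads. AGO5, an Argonaute of reproductive tissue, and PHT1;8, a phosphate transporter, were silent as well.

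Most genes varied little between the 3 libraries, and the variation that was found lay mainly in replicate 1. A chi-square test of each gene's reads against the nuclear totals called 2987 of 17735 genes tested (16.8%) as differing beyond counting error, at a Benjamini-Hochberg adjusted p under 0.01. Without replicate 1 the calls fell to 566 of 17899. Without replicate 2 there were 2812 of 17783 and without replicate 3 1714 of 17688. Calls depend on depth. With the test run on the 8233 genes with a mean of at least 100 normalised reads, 2565 were called. For lists with many such genes 16.8% is therefore a low background. Among the 8233 genes with a mean of at least 100 normalised reads, the median log2 range was 0.26 and the 95th percentile 0.88. A log2 range over 1 was found for 308 genes (3.74%). Replicate 1 was highest in 279 of these and replicate 3 lowest in 260. Replicate 1 stood more than 2-fold above both other libraries for 141 genes and below both for 10, whereas replicate 2 did so for 1 and 0 genes and replicate 3 for 1 and 6. Leaving out replicate 1 left 10 genes with a range over 1. The nearest pair was replicates 2 and 3, with an SD of 0.22 for the log2 ratio across genes, against 0.34 for replicates 1 and 2 and 0.42 for replicates 1 and 3. Scaling by nuclear totals moved the median log2 ratio of replicate 1 to replicate 3 from 0.03 to -0.11, so ratios near that size have no fixed direction.

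**Figure D4:**
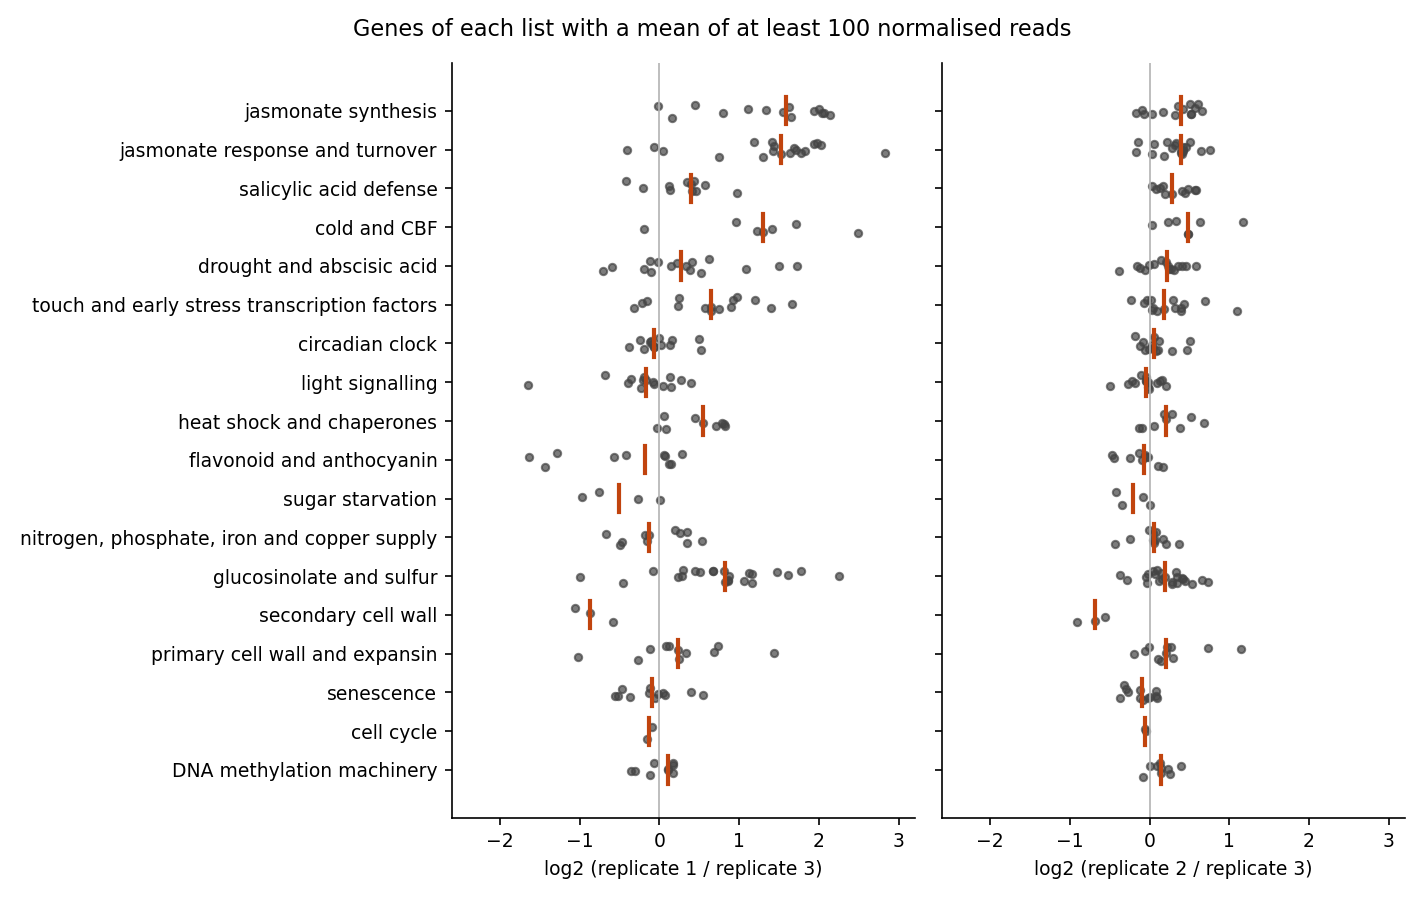
Log2 ratio of replicate 1 to replicate 3 (left) and of replicate 2 to replicate 3 (right) for genes of each list with a mean of at least 100 normalised reads. Points are genes and red lines medians. In the left panel the 2 jasmonate lists have medians of 1.59 and 1.53 and the cold list 1.30, while the circadian clock list lies at -0.07.

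The jasmonate lists had the largest median log2 ranges, 1.59 and 1.53, although a higher share of the glucosinolate list was called. Jasmonate is made from linolenic acid in chloroplasts and peroxisomes after wounding, and its active conjugate releases MYC factors from JAZ repressors. In the synthesis list 11 of 15 genes tested were called (background 16.8%), and 10 of the 14 with a mean of at least 100 reads had a log2 range over 1 (background 3.74%). Replicate 1 was highest in 13 of 14. Their summed level was 38970, 16384 and 12698 normalised reads. Without replicate 1, 8 of 15 were called between replicates 2 and 3 (background 566 of 17899).

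LOX2, the lipoxygenase that starts the pathway in leaves, had 11797, 3787 and 2948 normalised reads. LOX3 had 4589, 1725 and 1094, and LOX4 3135, 1458 and 1013. Replicate 1 was above both other libraries in all 3 lipoxygenase genes. AOS, allene oxide synthase, had 4867, 2363 and 1657, and AOC1, allene oxide cyclase, 841, 310 and 203. OPR3, the reductase of the peroxisomal part, had 5524, 1860 and 1255. By contrast LOX6 (434, 370 and 387) and PKT3, a thiolase of beta-oxidation (1275, 1209 and 1291), were not called.

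The response and turnover genes followed. Of 27 tested 24 were called (background 16.8%). Of the 19 with a mean of at least 100 reads 15 had a range over 1 (background 3.74%). Replicate 1 was highest in 16 of the 19. MYC2, the leading factor of the response, had 6074, 3028 and 2263 normalised reads. JAZ10, a repressor induced by the hormone, had 304, 78.2 and 76.6, and JAZ5 794, 308 and 232. The enzymes that oxidise or split jasmonate conjugates shared this order, with CYP94B1 at 267, 62.6 and 36.7 and ILL6 at 1204, 445 and 312. VSP2, a wound-induced storage protein, had 187, 46 and 35 reads, and the defensin PDF1.2 159, 26 and 28 reads. Without replicate 1, 6 of 26 tested were called (background 566 of 17899). The receptor COI1 (488, 460 and 510) and MYC3 (1064, 1065 and 1028) were not called, and MYC4 had its lowest level in replicate 1 (350, 414 and 464).

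The G-box is also the site bound by MYC factors. It lay in 2 of 16 windows of the synthesis list and 4 of 28 of the response list, in 47 of 278 windows (16.9%) of genes with a range over 1 that were highest in replicate 1, in 8.44% of the genes with a mean of at least 100 reads and in 6.49% of all. The 3 jasmonate genes with the largest range among those with a match are shown, with the match in capitals. JAZ7 (chr2:14572780-14573029, plus strand) had 225, 99.1 and 62.8 normalised reads and its G-box 34 bases before the start. TIFY10B, also called JAZ2 (chr1:28150447-28150696, minus strand), had 1526, 582 and 465 and its G-box at 66 bases. In AOS (chr5:17099596-17099845, minus strand) the G-box forms the last 6 bases of the window. A match is a description of the letters and not a shown binding site.
JAZ7: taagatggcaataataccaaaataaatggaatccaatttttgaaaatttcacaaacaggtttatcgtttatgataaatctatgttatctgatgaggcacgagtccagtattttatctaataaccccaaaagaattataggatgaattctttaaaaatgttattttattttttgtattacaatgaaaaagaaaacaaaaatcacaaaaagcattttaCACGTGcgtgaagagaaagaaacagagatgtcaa
TIFY10B: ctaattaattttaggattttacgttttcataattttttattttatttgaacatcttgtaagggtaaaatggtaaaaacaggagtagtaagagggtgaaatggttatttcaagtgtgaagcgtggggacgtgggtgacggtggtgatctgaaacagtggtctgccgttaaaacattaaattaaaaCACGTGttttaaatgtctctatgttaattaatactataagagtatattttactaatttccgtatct
AOS: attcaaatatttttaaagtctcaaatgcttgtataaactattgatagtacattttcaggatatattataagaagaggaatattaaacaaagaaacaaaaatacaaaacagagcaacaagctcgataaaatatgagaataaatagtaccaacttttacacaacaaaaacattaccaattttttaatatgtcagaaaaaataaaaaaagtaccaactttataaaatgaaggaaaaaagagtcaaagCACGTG

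**Figure D5:**
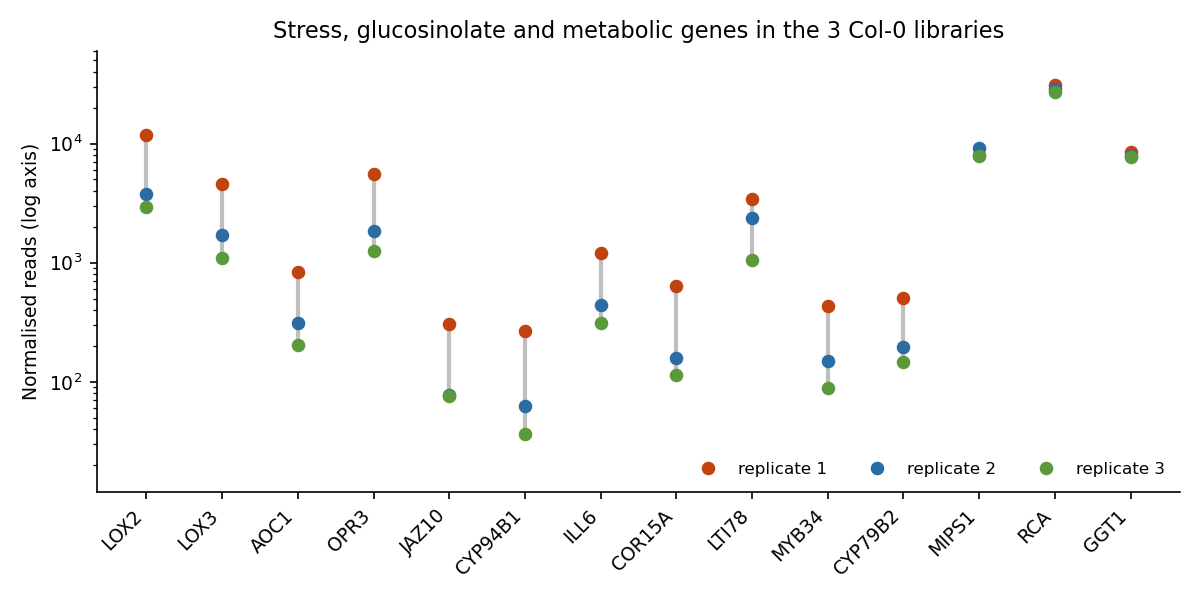
Normalised reads (log axis) of stress, glucosinolate and metabolic genes in the 3 Col-0 libraries. Replicate 1 lies above the others from LOX2 to CYP79B2, with LOX2 at 11797 against 3787 and 2948, whereas RCA and GGT1 nearly coincide.

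Cold-regulated genes had the same order. Of 13 tested 11 were called (background 16.8%). Of the 7 with a mean of at least 100 reads 5 had a range over 1 (background 3.74%). Replicate 1 was highest in 6 of the 7. COR15A, a chloroplast protein that guards membranes on freezing, had 642, 158 and 113 normalised reads. LTI78 had 3452, 2369 and 1054, COR47, a dehydrin, 7214, 4106 and 2935, and KIN2 1941, 975 and 832. The CBF factors that induce them had few reads. CBF1 had 4, 4 and 0 reads, CBF2 24, 24 and 6, and CBF3 (DREB1A in RefSeq) 1, 2 and 3. CBF2 was thus lowest in replicate 3, as were the 4 cold genes named above. A link between the factors and these genes was not tested. ICE1, an upstream factor (169, 196 and 192 normalised reads), was not called. Without replicate 1, 3 of the 13 were called (background 566 of 17899).

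CBF factors bind the CRT/DRE core CCGAC. It lay in 4 of 15 windows of cold genes (26.7%) and in 12% of all windows. Other lists had shares as high, 6 of 19 heat shock windows (31.6%) and 6 of 20 drought windows (30%). The 2 cold genes with the largest range that hold a match are shown, with matches on either strand in capitals. COR15A (chr2:17712331-17712580, minus strand) has 2, starting 142 and 79 bases before the start, and LTI78 (chr5:21240467-21240716, plus strand) has 3, at 140, 90 and 33 bases.
COR15A: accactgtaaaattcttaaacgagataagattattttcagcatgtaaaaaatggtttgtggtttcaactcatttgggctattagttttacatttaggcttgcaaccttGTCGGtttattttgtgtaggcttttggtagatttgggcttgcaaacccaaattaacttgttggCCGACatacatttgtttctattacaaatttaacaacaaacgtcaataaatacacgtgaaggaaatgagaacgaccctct
LTI78: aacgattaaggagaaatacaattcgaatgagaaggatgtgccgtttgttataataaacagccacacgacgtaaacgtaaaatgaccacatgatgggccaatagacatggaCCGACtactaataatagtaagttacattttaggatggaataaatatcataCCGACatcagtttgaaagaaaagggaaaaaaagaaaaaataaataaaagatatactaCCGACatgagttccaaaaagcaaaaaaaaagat

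In the glucosinolate list 22 of 23 genes tested were called (background 16.8%). A range over 1 was found for 8 of 23 (background 3.74%), with replicate 1 highest in 20 of the 23. Without replicate 1, 9 of 23 were called (background 566 of 17899). MYB34, a factor for tryptophan-derived glucosinolates, had 432, 150 and 89.7 normalised reads, and CYP79B2 and CYP79B3, its enzyme targets, 509, 198 and 148 and 1115, 441 and 364. TGG1 and TGG2, the myrosinases, had 1797, 1095 and 863 and 1839, 937 and 820. MYB51, another factor of the same branch, went the other way, with 130, 201 and 260. MYB28 (396, 448 and 545) was also lowest in replicate 1.

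Touch-induced and early stress factors were called in 12 of 17 cases (background 16.8%), and 4 of 15 exceeded a range of 1 (background 3.74%). Without replicate 1, 6 of 17 were called (background 566 of 17899). WRKY18 had 2054, 1048 and 647 normalised reads and WRKY40 1027, 513 and 390, whereas WRKY33 (716, 761 and 895) was highest in replicate 3. TCH4, a touch-induced xyloglucan enzyme, had 288, 331 and 154. Drought and abscisic acid genes were mixed. Of 19 tested 10 were called (background 16.8%) and 3 of 16 exceeded 1 (background 3.74%). The calls numbered 3 without replicate 1 and 6 without replicate 3 (backgrounds 566 of 17899 and 1714 of 17688). RD26, a NAC factor (2306, 1052 and 700), RD20 (2736, 1240 and 969) and NCED3 of abscisic acid synthesis (257, 133 and 121) were highest in replicate 1, but RAB18 (159, 170 and 137) and ABF4 (425, 416 and 462) were not called. In the heat list 6 of 14 genes tested were called (background 16.8%). The calls numbered 4 without replicate 1 and 4 without replicate 3 (backgrounds 566 of 17899 and 1714 of 17688). Cytosolic HSP70 genes were among the 6, with smaller ranges. HSC70-1 had 20329, 18208 and 14935 normalised reads and HSP70 4476, 2949 and 2551. The 9 heat genes with a mean of at least 100 reads had a median log2 range of 0.54, against 0.26 for all such genes. None of the 9 exceeded 1 (background 3.74%).

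Salicylic acid defense genes had smaller ranges than the jasmonate lists. The 11 with a mean of at least 100 reads had a median log2 range of 0.45, against 0.26 for all such genes. Of 17 tested 5 were called, against 16.8% of all genes tested and 2565 of the 8233 with a mean of at least 100 reads. The calls numbered 1 without replicate 1 (background 566 of 17899) and 1 without replicate 3 (background 1714 of 17688). None of the 11 exceeded 1 (background 3.74%). PR1, the classical marker of this response, had 35, 54 and 41 reads and BGL2, a glucanase also called PR2, 637, 570 and 470 normalised reads. Among 15 cell cycle genes tested the chi-square test called 0 (background 16.8%), and 3 had an unadjusted p under 0.05 (background 6472 of 17735). Senescence genes were called in 9 of 15 cases (background 16.8%) with small ranges. The calls numbered 3 without replicate 1 and 4 without replicate 3 (backgrounds 566 of 17899 and 1714 of 17688). NAP, a senescence NAC factor, had 1429, 1538 and 1852, and no senescence gene exceeded 1.

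Fewer genes were lowest in replicate 1. In the flavonoid list 11 of 21 tested were called (background 16.8%) and 3 of 10 exceeded 1 (background 3.74%). The calls numbered 4 without replicate 1 and 7 without replicate 3 (backgrounds 566 of 17899 and 1714 of 17688). TT4, chalcone synthase, had 212, 540 and 576 normalised reads, DFR 70.2, 126 and 172, and MYB90, a factor of anthocyanin synthesis, 80.7, 182 and 253. Its paralog PAP1 (254, 236 and 209) was not called and was highest in replicate 1, and of the 10 genes with a mean of at least 100 reads 5 were highest there and 5 lowest. The general phenylpropanoid genes PAL1 (1046, 906 and 943) and C4H (1248, 1132 and 1144) were not called. PIL5, also known as PIF1, a repressor of light responses, had 44.0, 116 and 140. Outside the lists the early light-induced ELIP1 had 391, 885 and 1243, and GLN1;4, a cytosolic glutamine synthetase, 278, 829 and 859.

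Of the secondary wall genes the 3 with a mean of at least 100 reads were highest in replicate 3. The cellulose synthases of xylem CESA4 (174, 170 and 320 normalised reads), IRX3 (142, 183 and 295) and IRX1 (113, 116 and 170) were all called. In this list 8 of 16 tested were called (background 16.8%). Low factors of the list, such as NAC010 (7, 12 and 7 reads) and MYB58 (3, 8 and 8 reads), were not called. IRX9 and GAUT12 of xylan synthesis had 17.8, 27.0 and 42.4 and 30.4, 30.4 and 62.0. Calls numbered 4 without replicate 1 (background 566 of 17899) and 0 of 14 without replicate 3 (background 1714 of 17688). Of those 14, 3 had an unadjusted p under 0.05 by the chi-square test (background 4674 of 17688). With median-of-ratios size factors 5 were called (background 2615 of 17641). XCP2, a xylem protease, had 80, 127 and 99 reads. In bulk tissue more cells of a type and more RNA per cell cannot be told apart.

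Beside these values stand those of marker lists. The mesophyll markers summed to 46482, 42969 and 41148 normalised reads and the phloem markers to 3103, 3315 and 3427. The xylem markers summed to 361, 426 and 565, the 2 listed meristem markers to 72.3, 115 and 126 and the floral markers to 33.5, 50.4 and 69.3. The mesophyll list was highest in replicate 1 and the other 4 were lowest there and highest in replicate 3. The mesophyll sums differ by little more than the shift between the deposited scaling and nuclear totals, so their order is uncertain. The 3 listed root markers summed to 200, 358 and 361, while the guard cell (273 to 297) and epidermal (2118 to 2300) sums moved less. Their part in the differences between libraries was not tested.

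Of the 20 genes with the largest log2 range, 3 have a near-identical copy in the genome, among them the first and the second. AT1G53885 had 300, 2 and 3 reads, a log2 range of 6.85. Its 975 bases (chr1:20119506-20120480) are 100% identical to AT1G53903 at chr1:20132071-20133045, which has no row. AT5G36790 had 10, 11 and 366 reads, a range of 4.83, and its 3446 bases are 100% identical to the locus of PGLP1, AT5G36700, a photorespiratory phosphatase, which had 1, 2 and 1 reads. The 18S rRNA gene AT2G01010 had 676, 4565 and 1240 reads and is 99.9% identical to AT3G41768, which had 279672, 382396 and 276473. Reads of such copies cannot be told apart, and these ranges are uncertain. Of all 8231 genes searched, 37 (0.45%) had a copy of at least 98% identity over 80% of their length.

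The other 17 genes had no such copy, and all 17 were highest in replicate 1 and lowest in replicate 3. AT3G28220, a TRAF-like protein, had 287, 33.0 and 29.4 normalised reads, and AT2G34930, a leucine-rich repeat protein, 495, 141 and 65.2. ANNAT4, an annexin, had 320, 120 and 57.9, ERD7 3455, 1350 and 651, and BGLU18, a beta-glucosidase that can release abscisic acid from its conjugate, 2437, 716 and 483. ABR1, an ERF factor, had 218, 61.7 and 40.8. At the other end of the ranking UBQ10, MUG7 (189, 187 and 186 normalised reads) and NHO1, a glycerol kinase (286, 287 and 285), were close to constant.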

How the data were processed

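RNA-seq was made by the authors from Col-0 mature leaves at 5 weeks, 3 libraries. The study's methods name Fastp, Hisat2 to TAIR10, SAMtools with a minimum mapping quality of 30 and HTSeq-count, while the submitters' processing notes name Trimmomatic, HISAT2, DESeq2 and TAIR10, with no versions. Strand settings are not given in the sources used here. The deposited values are log2(normalised count + 1), made by the authors per gene and library. Removing the logarithm and dividing by the smallest value above 0, taken as 1 read, gave whole reads for every value, with a largest deviation of 8.2e-08. RNA molecules carried no molecular identifiers, so floors cover counting error only.

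Genes were annotated from RefSeq TAIR10.1, which matched 22862 of the 22901 nuclear identifiers. Levels were reads per kb of exon, scaled to 1000000. Classes were assigned from RefSeq product names. Spread between the 3 libraries was tested by chi-square against the nuclear totals for genes with an expected 5 reads or more in each library, with Benjamini-Hochberg adjustment over all of them and a threshold of 0.01. This test compares libraries and no condition. On simulated libraries with counting error only (17712 genes tested), it called 100% of 100 genes changed 2-fold, 33% of 100 changed 1.25-fold and 0% of the unchanged. The changed genes were drawn from those with at least 100 expected reads in each library, so power at lower counts was not measured. The 0% holds for counting error only, which is what the test assumes. The log2 range is the highest over the lowest library, with 1 added to normalised reads, for genes with a mean of at least 100. Near-identical copies were searched with blastn 2.17.0+ (at least 98% identity over 80% of the gene). Python 3.11.15, numpy 2.4.6, pandas 2.3.3, SciPy 1.17.1 and matplotlib 3.10.9 were used. Other size factors, filters, thresholds and the omission of each library were tried as alternatives.

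Genes were named by rule: the 20 highest in TPM, the 20 with the largest log2 range, the 10 TE genes with most reads, marker genes, and 2 to 4 members per list with the highest level or largest range. Further class and list members were named after their values were seen. The members and lists were chosen with earlier results of these data known.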

Additional observations from a re-analysis of the deposited data

How the results depend on the processing

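No paired analysis was possible because all 3 libraries belong to 1 group. The count of genes that differed beyond counting error (2987) became 4516 at an adjusted p under 0.05, and 566 to 2812 with 1 library left out, lowest without replicate 1. The photosynthesis share (4.53%) was 4.97% per length and 4.04% without the 10 genes with most reads, and, as alternatives chosen after seeing the data, 4.90% without the 4 rRNA genes and 4.49% without the 9 genes drawn in by name. The genes that held 25% of nuclear transcripts (50) became 178 when reads were not divided by length and 256 without rRNA genes. The TE genes called expressed (80) became 127 at 3 reads in each library, 48 at 30 and 151 at 10 reads over all 3. Silent genes (829) became 1646 at 1 read or fewer and 2935 at 3 or fewer, and 1255 to 1355 with 1 library left out, since fewer libraries make 0 reads more likely. The median log2 range (0.26) was 0.12 to 0.19 with 1 library left out. Genes with a log2 range over 1 (308) became 868 at a mean of 20 reads or more and 99 at 500 or more, and 10 to 300 with 1 library left out. Of the 20 genes named for their range, 10 lost the chi-square call without replicate 1 and 1 without replicate 3. Why replicate 1 stood apart was not tested. Depth limits statements on genes with few reads, for which a count of 0 allows up to 3 reads.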

Other observations

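The following non-coding RNAs other than rRNA were chosen after their values were seen. The 38 non-coding RNA genes, rRNA included, with a mean of at least 100 normalised reads had a median log2 range of 0.34 between libraries, against 0.26 for all genes. AT4G36648, an RNA with no named product, had 1188, 1139 and 1245 reads in replicates 1, 2 and 3 and a level of 238 ± 17.8 TPM (SD, n = 3). GUT15, a long non-coding RNA, had 510, 592 and 656 reads and 145 ± 8.10 TPM. The precursor of miR163, MIR163, had 152, 213 and 185 reads and 232 ± 29 TPM. The spliceosomal RNA genes U1.5 and U2.3 had 340, 421 and 360 and 227, 308 and 341 reads. Of 76 miRNA precursor genes listed, 7 had 0 reads in all 3 libraries.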
